A study of Homo sapiens with 72 samples.

Results

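SERPINB2, SERPINE2, PLAU, PLAUR and PLAT belong to the plasminogen activator system, and they were read on the arrays by 6 probes of 41000. The members were taken as every probe, control spots left out, that the scanner files name for 1 of these 5 genes. SERPINB2 was read by 2 probes and the other genes by 1 each, and all 6 probes were among the 25236 that passed a filter on dim or uneven spots. The genes were chosen by how far irradiated and bystander cells differed from controls in these data, so their ratios to control are given as a description and carry no test.

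RNA came from early-passage IMR-90 cells, a strain of normal human lung fibroblasts, and was read in 1 colour on arrays of oligonucleotides for the whole genome. Irradiated cells took 0.5 Gy of α-particles through a thin Mylar dish base. Bystander cells grew in the same layer on strips of thicker Mylar that stopped the particles, and control cells were sham-irradiated. Cells were collected at 6 times, the earliest at 0.5 h and then at 1, 2, 4, 6 and 24 h, in 4 independent experiments for each of the 18 groups, which gives 72 arrays. All 3 samples of an experiment were grown from 1 pool of cells. Experiments are numbered here by the replicate numbers in the labels. Whether a number stands for the same experiment at different times was not checked. Between 65.7% and 76.9% of the spots of an array were well above background.

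The plasminogen system turns the abundant proenzyme plasminogen into plasmin, a protease that dissolves fibrin and helps cells to degrade and cross extracellular matrix. Urokinase (PLAU) and tissue-type plasminogen activator (PLAT) make the cut, the urokinase receptor (PLAUR) holds urokinase at the cell surface, and inhibitors of the serpin family shut the activators off. SERPINB2 and SERPINE2 are 2 such inhibitors. SERPINB2 is largely kept inside the cell and is known as a gene that inflammatory signals raise, and SERPINE2 is secreted and also blocks thrombin.

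Levels are given as log2 intensity relative to the 75th percentile of the same array, so that 0 is that percentile and a step of 1 is a doubling. Of the markers of the labelled cell type, all 9 of 9 fibroblast genes were well above background on all 72 arrays, with mean levels of their brightest probes between 2.77 and 7.28. The endothelial markers PECAM1 and CDH5 were above background on 2 and 12 arrays, the epithelial markers CDH1 and KRT5 on 0 and 1, and the leukocyte marker PTPRC on at most 1. VWF (by 1 of its 2 probes), CD68 and CD14 were above background on all 72 arrays at low mean levels of -3.29, -1.14 and -2.90, CD3E on 72 by 1 of its 2 probes, and EPCAM on 44. In bulk RNA, a change in the number of cells that express a gene and a change in the RNA per cell cannot be told apart.

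The experiments were not equally unlike each other. Experiments 1 and 2 were the closest pair of arrays in 15 of the 18 groups, with a SD of the log2 difference between them of 0.25 to 0.84 over all probes that passed. Spot scatter was read from 206 probes printed in 10 or more spots. The SD of the difference between these 2 experiments was 1.04 to 4.30 times the SD that replicate spots on both arrays give for such a difference. That ratio takes in spot scatter alone and does not tell whether the 2 experiments came from separate cultures, which was not tested. The arrays were kept as separate samples, as the labels give them, and the calls of the gene lists are also given with the pair averaged into 1 sample. Each of the 18 slides held 4 arrays and all 3 treatments, but only some pairs of arrays that were compared shared a slide.

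SERPINB2 was the member with the largest ratios to control. Its brighter probe (A_23_P153185) was higher than in the control of the same experiment in 23 of 23 irradiated samples and 23 of 23 bystander samples that could be paired. The second probe (A_24_P245379) was higher in 24 of 24 and 24 of 24, by as little as 0.08 and 0.06 at 1 h in experiment 1. By the brighter probe the mean paired ratio after irradiation was 4.22 ± 1.91 (log2, SD, n = 4) at 0.5 h, 1.51 ± 0.93 at 1 h, 1.78 ± 0.58 at 2 h, 3.19 ± 1.16 at 4 h, 4.41 ± 2.58 (n = 3) at 6 h and 2.15 ± 0.68 at 24 h. The mean ratios were thus high at 0.5 h, low at 1 and 2 h, and high again at 4 and 6 h. Mean control levels moved too, at -1.69, -0.47, -0.58, -1.16 and -1.85 at 0.5, 1, 2, 4 and 6 h. The sequence in the ratios is therefore not that of treated cells alone. Experiments 1 and 2, with 5.88 and 5.87 at 0.5 h, 0.72 and 0.85 at 1 h and 4.17 and 4.14 at 4 h, carried most of this sequence, whereas experiment 4 stayed between 2.23 and 3.09 at all times. In bystander cells the same probe gave 3.9 ± 2.68 at 0.5 h, 1.30 ± 1.08 at 1 h, 1.42 ± 0.47 at 2 h, 3.12 ± 1.59 at 4 h, 3.79 ± 2.80 (n = 3) at 6 h and 1.94 ± 0.87 at 24 h, with the same sequence in the means. Experiment 4 ran the other way early on in bystander cells, with 0.45 at 0.5 h and 2.92 at 1 h, and experiment 3 was at 1.00 at 4 h. The 6 h means rested on 3 pairs each, and were 2.93 after irradiation without experiment 1 and 2.23 in bystander cells without experiment 2.

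At 0.5 h the control levels of SERPINB2 in experiments 1 to 4 were -2.37, -2.24, -0.58 and -1.57. The irradiated levels were 3.51, 3.63, 2.05 and 0.95, and the bystander levels 3.62, 3.82, 2.52 and -1.12. Every irradiated array was above every control array, and the bystander array of experiment 4 was within the control range, while experiments 1 and 2 held the highest values in both treated groups. At 1 h the control levels were -0.03, 0.06, -1.60 and -0.30, against 0.69, 0.91, 0.13 and 2.43 in irradiated and 0.72, 0.93, -0.93 and 2.62 in bystander cells. Here experiment 4 was the highest in both treated groups, and the bystander group overlapped the controls through experiment 3. Without experiment 4 the mean bystander ratio at 1 h was 0.76 in place of 1.30.

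At 2 h the control levels were -1.04, -0.90, -0.71 and 0.34, the irradiated levels 1.02, 0.99, 0.23 and 2.58, and the bystander levels 0.52, 0.68, 0.03 and 2.16. At 4 h they were -1.72, -1.78, -1.68 and 0.54 in controls, 2.45, 2.36, 0.17 and 3.13 in irradiated cells, and 2.59, 2.60, -0.68 and 3.32 in bystander cells. At both times the control of experiment 4 lay above the treated arrays of experiment 3, so the groups overlapped although each treated array was above its own control. At 6 h the controls were at -3.15, -2.47, -2.14 and 0.37. The irradiated arrays were at 4.23, 0.63 and 3.46 in experiments 1, 3 and 4, and the bystander arrays at 4.44, -0.65 and 3.34 in experiments 2, 3 and 4. The irradiated spot of experiment 2 and the bystander spot of experiment 1 were uneven and were left out. The second probe had a value in all 4 experiments at 6 h, with irradiated ratios of 6.49, 7.17, 3.37 and 2.59 and bystander ratios of 6.78, 7.26, 2.21 and 2.22. Its control levels there were -4.84, -5.52, -5.27 and -1.58, and only 3 of these 4 spots were well above background. Ratios to the remaining control can be read as lower bounds only.

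The 24 h arrays of experiment 3 stood apart. SERPINB2 was at 4.88 in the control of that experiment, against -1.88, -1.77 and -1.24 in the controls of the other 3. It was at 6.19 in its irradiated and 5.93 in its bystander sample, against 0.51, 0.22 and 1.68 and against -0.31, 0.30 and 1.85. Of 25232 probes on the control array of experiment 3, only 3, SERPINB2's own included, exceeded the mean of the other controls by as much as SERPINB2 did, a log2 difference of 6.51. Set against the other arrays of their own treatment, its irradiated and bystander arrays had 17 and 15 such probes, for SERPINB2 differences of 5.39 and 5.32. The high level was shared by all 3 samples of that experiment, and their ratios to control, 1.31 and 1.05, were the lowest of the 4 at 24 h. Without experiment 3 the mean ratios at 24 h were 2.43 and 2.24.

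**Figure D1:**
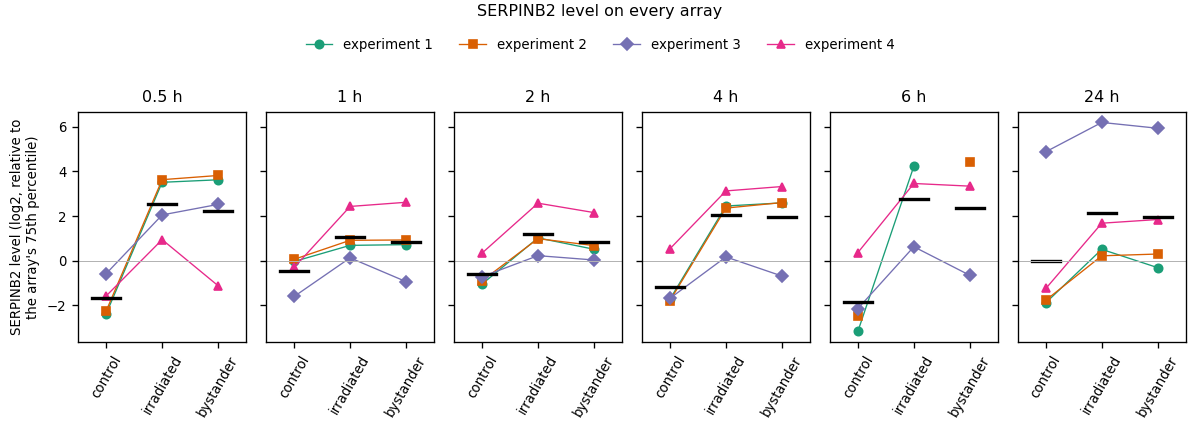
SERPINB2 level on each array (probe A_23_P153185, log2 relative to the array's 75th percentile) by treatment, in 1 panel per time; symbols and thin lines mark the 4 experiments and thick bars the group means. Each treated array lies above the control of its own experiment, the mean ratios are largest at 0.5 and 6 h, and experiment 3 lies far above the others at 24 h in all 3 groups; 2 uneven spots at 6 h are left out.

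Over the 18 groups, the mean SERPINB2 level ran from -1.85 in 6 h controls to 2.77 in irradiated cells at 6 h. The 6 control groups took the 6 lowest places, and the bystander group at 1 h came next at 0.83. Each step between neighbours in this order was smaller than the SD of either group, with SDs of 0.63 to 3.27, and times were on separate slides. The brighter probe had 18 of 18 irradiated pairs higher among those with both arrays on 1 slide, with ratios of 0.72 to 7.38, and 11 of 11 bystander pairs, with ratios of 0.75 to 5.99. By the second probe 18 of 18 irradiated and 12 of 12 bystander pairs on 1 slide were higher, with lowest ratios of 0.08 and 0.06.

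The ratios of the 2 SERPINB2 probes were close but not equal. At 1 h after irradiation they were 0.72 and 0.85 in experiments 1 and 2 by the brighter probe, and 0.08 and 0.18 by the second. Over 46 pairs measured by both, they differed by a median of 0.24 and by at most 1.06 (log2), with a Pearson correlation of 0.97. These pairs share arrays and controls, so the value is a description. Irradiated and control arrays did not overlap at 0.5, 1 and 6 h by the brighter probe, where 4.55%, 2.35% and 4.11% of all probes had every irradiated array above every control. At 6 h that probe had 3 irradiated arrays. By the second probe the groups overlapped at 1 and 6 h. Its lowest irradiated arrays were at -2.85 and -1.90 there, and its highest controls at -2.14 and -1.58. Irradiated against control is a contrast by which the genes were chosen, and nothing is read from it.

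The sequence read by the second SERPINB2 probe, and the stretch just before the start of the gene, are shown because SERPINB2 is the member with the largest ratios. The probe is a 60-base oligonucleotide, printed as the files give it.

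A_24_P245379: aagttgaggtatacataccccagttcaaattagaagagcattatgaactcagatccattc

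The 250 bases before the annotated start of SERPINB2 lie at chr18:63887455-63887704 on the plus strand, and those of PLAUR at chr19:43670170-43670419 on the minus strand, both from RefSeq on GRCh38.p14, each read 5′ to 3′ along its gene. Capitals mark matches to TGANTCA, a form of the AP-1 element with its middle base left free, or to TATAAA, on either strand, and no match to one lies over a match to the other.

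SERPINB2: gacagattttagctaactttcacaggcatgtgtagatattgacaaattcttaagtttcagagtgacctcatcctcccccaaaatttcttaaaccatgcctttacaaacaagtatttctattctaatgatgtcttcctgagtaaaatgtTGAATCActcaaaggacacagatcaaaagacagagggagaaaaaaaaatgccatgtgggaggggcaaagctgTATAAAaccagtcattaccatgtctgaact
PLAUR: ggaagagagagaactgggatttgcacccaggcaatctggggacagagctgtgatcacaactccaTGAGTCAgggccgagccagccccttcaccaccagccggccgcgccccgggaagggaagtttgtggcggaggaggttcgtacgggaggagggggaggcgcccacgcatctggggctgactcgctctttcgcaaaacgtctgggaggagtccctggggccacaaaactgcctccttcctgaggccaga

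In the SERPINB2 window TGANTCA begins 102 bases and TATAAA 30 bases before the start, and in the PLAUR window TGANTCA begins 186 bases before it. Of 35116 windows of the same length in the table, 6.57% held TGANTCA, 10.7% TATAAA and 1.4% the NF-kB motif, which was in none of the windows of SERPINB2, PLAUR, PLAU and SERPINE2. The 2 windows of PLAU and the 2 of SERPINE2 held none of these 3 patterns. A match describes the letters only.

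Among the activators, PLAU was bright on all arrays, with mean ratios to control of -0.23 to 0.66 after irradiation and -0.24 to 0.55 in bystander cells. At 0.5 h it was lower than its control in 4 of 4 experiments in both treated groups, by means of -0.23 ± 0.10 and -0.24 ± 0.12 (SD, n = 4), as were 17.2% and 10.7% of all probes in irradiated and bystander cells. Without scaling these means were -0.27 and -0.39. At 2 h PLAU was higher than its control in 4 of 4 experiments after irradiation, as were 14.1% of all probes, and in 3 of 4 in bystander cells. The mean irradiated ratio at 2 h was 0.34 ± 0.17 with scaling and -0.04 without it. At 6 h the control levels were 5.56, 5.77, 6.10 and 6.43, the irradiated levels 6.67, 6.71, 6.00 and 7.12, and the bystander levels 6.57, 6.64, 5.81 and 7.02. Experiments 1, 2 and 4 were thus higher than their controls, and experiment 3 was not, which left mean ratios of 0.66 ± 0.54 and 0.55 ± 0.58 and overlapping groups. Without experiment 3 the 6 h ratios were 0.91 and 0.82, and without scaling between arrays 0.30 and 0.35. The sign of 6 of its 12 mean ratios turned when arrays were not scaled to each other, as did 3 under quantile normalization.

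PLAT was also bright. Its levels stayed between 5.73 and 6.86 on all 72 arrays, and its mean ratios were -0.35 to 0.05 after irradiation and -0.33 to 0.01 in bystander cells. At 1 h, where the mean irradiated ratio was lowest, the controls were at 6.41, 6.51, 6.43 and 6.69 and the irradiated arrays at 6.14, 6.33, 6.11 and 6.07. All 4 irradiated arrays were below the controls there, as for 2.55% of all probes, with a mean ratio of -0.35 ± 0.19 with scaling and -0.11 without it. Without scaling the mean irradiated ratio was -0.63 at 2 h in place of -0.25, -0.54 at 6 h in place of -0.18 and -0.35 at 24 h in place of 0.05. With 1 experiment left out the scaled means ran from -0.31 to -0.15 at 2 h, -0.35 to -0.05 at 6 h and -0.09 to 0.22 at 24 h. PLAT was lower than control in 18 of 24 irradiated and 17 of 24 bystander pairs. The bystander pairs on 1 slide were lower in 12 of 12, with a median of -0.31, and those on different slides in 5 of 12, with a median of 0.06. PLAU and PLAT were each read by a probe printed in 10 spots per array, and the other members by probes printed once.

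The receptor gene PLAUR was higher than control in 22 of 24 irradiated and 21 of 24 bystander pairs, and from 1 h on its ratios were largest in experiment 4. At 4 h the controls were at 0.77, 0.01, 0.37 and 0.63, the irradiated arrays at 0.90, 0.80, 0.58 and 2.79, and the bystander arrays at 0.72, 0.85, 0.52 and 2.74. The 3 other experiments stayed within or near the control range, while experiment 4 was above every control in both treated groups. At 6 h the controls were at 0.65, 0.39, -0.26 and 0.34, the irradiated arrays at 1.12, 0.99, 0.53 and 2.80, and the bystander arrays at 1.27, 0.77, 0.25 and 2.46. The mean ratios at 6 h were 1.08 ± 0.93 and 0.91 ± 0.82, and were 0.62 and 0.50 without experiment 4. At 2 h the means of 0.53 and 0.39 became 0.35 and 0.15 without it, at 4 h those of 0.82 ± 0.94 and 0.76 ± 0.97 became 0.37 and 0.31, and at 24 h those of 0.94 ± 0.84 and 0.82 ± 1.09 became 0.58 and 0.32. At 0.5 h it was experiment 3 that had the largest ratios, 1.09 and 1.17, around means of 0.54 ± 0.38 and 0.48 ± 0.47, which were 0.36 and 0.25 without it. Without scaling, the mean irradiated ratio of PLAUR was 0.15 at 2 h in place of 0.53, 0.72 at 6 h and 0.54 at 24 h, and the mean bystander ratio was 0.12 at 2 h in place of 0.39 and 1.23 at 4 h.

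The inhibitor gene SERPINE2 had its largest mean ratios from 4 h on, with the largest single ratios in experiment 3 at each of these times. At 4 h the controls were at 2.35, 2.49, 3.17 and 2.77, the irradiated arrays at 2.5, 3.1, 4.01 and 3.61, and the bystander arrays at 2.79, 2.93, 4.08 and 3.44. Each treated array was above its own control, as for 8.48% and 9.02% of all probes, and the groups overlapped, with mean ratios of 0.61 ± 0.32 and 0.61 ± 0.22. At 6 h the mean ratios of 0.44 ± 0.93 and 0.49 ± 0.73 held 1.68 and 1.47 in experiment 3, and without that experiment they were 0.03 and 0.17. From 0.5 to 2 h the mean ratios lay between -0.11 and 0.19. Each bystander array was above its own control at 0.5 h too, as for 13.8% of all probes. Without scaling the mean ratios at 6 h were 0.08 and 0.29, the bystander ratio at 4 h was 1.08, and 4 of the 12 mean ratios changed sign.

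**Figure D2:**
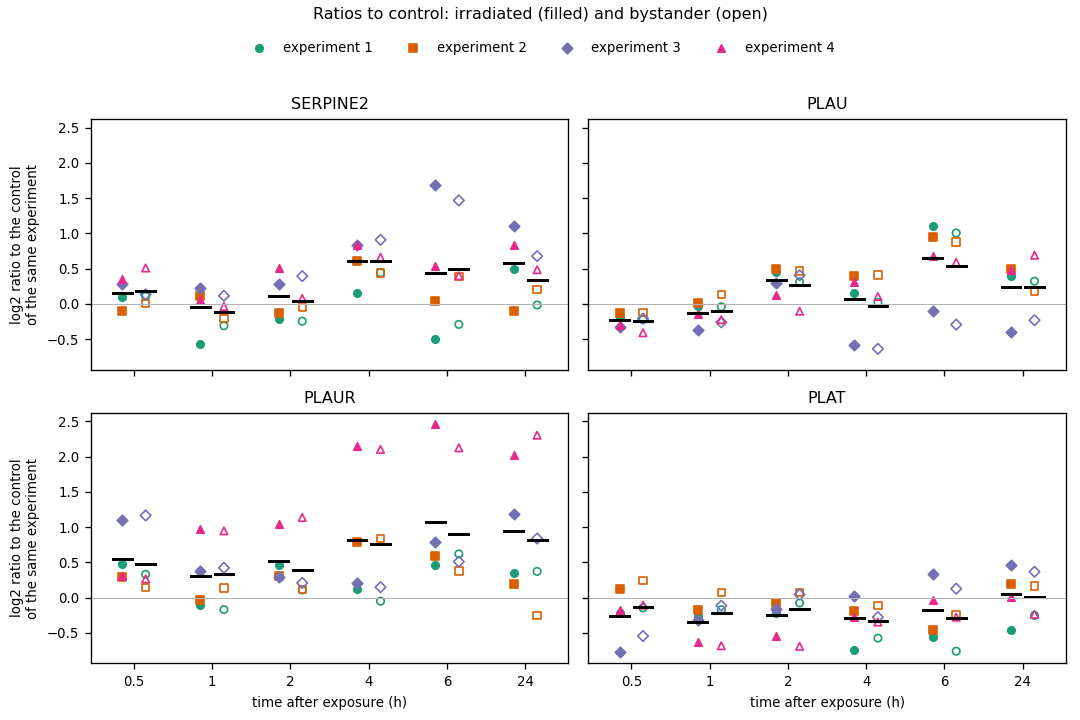
Log2 ratio of each treated sample to the control of the same experiment for SERPINE2, PLAU, PLAUR and PLAT, by time; filled symbols are irradiated and open symbols bystander cells, shapes mark the 4 experiments and bars the means. PLAUR reaches 2.46 in experiment 4 at 6 h while the other experiments reach at most 0.79 there, SERPINE2 is highest in experiment 3 from 4 h on, and PLAT lies between -0.77 and 0.47.

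The members did not share 1 pattern across samples. Over the 46 pairs in which SERPINB2's brighter probe was measured, the Pearson correlation of its ratios was 0.32 with those of PLAU, 0.10 with PLAUR, -0.11 with SERPINE2 and -0.19 with PLAT. The irradiated and bystander ratios of an experiment share a control array, so these values are descriptions without a test. In the ratios by experiment, SERPINB2 averaged 3.77 in experiment 1 and 1.87 in experiment 3 after irradiation over the times measured, whereas PLAUR averaged 0.30 in experiment 1 and 1.49 in experiment 4.

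The direct comparison of irradiated with bystander cells took no part in the choice of the genes. It asks whether cells that were hit differed from neighbours that were not, and it uses the same arrays. None of the 36 differences (6 probes at 6 times) passed by limma, where a call needs an adjusted p below 0.10, with a smallest adjusted p of 0.94. By limma 0 of the 36 had an unadjusted p below 0.05, beside 1.91% of all probe measurements. Over the whole array 0%, 0%, 0.0436%, 0.00793%, 0% and 0% of probes were called between these groups from 0.5 to 24 h. The fitted differences ran from -0.13 to 0.65 (log2).

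For SERPINB2 the difference between irradiated and bystander cells was 0.32 at 0.5 h, with a 95% interval of -1.37 to 2.02, and 0.21 at 1 h, with -0.55 to 0.97. It was 0.36 at 2 h (-0.05 to 0.76), 0.07 at 4 h (-0.91 to 1.04), 0.65 at 6 h (-1.46 to 2.77, where the fit had 3 arrays in each group) and 0.21 at 24 h (-0.43 to 0.85). The intervals thus allow differences of more than 2-fold in either direction at 0.5 and 6 h, and at 2 h irradiated cells were higher in 4 of 4 experiments, by 0.51, 0.31, 0.19 and 0.42, as were 5.36% of all probes. Among PLAU, PLAT and SERPINE2 the widest interval was -0.66 to 0.56 for SERPINE2 at 6 h, and that of PLAUR at 24 h was -0.63 to 0.87.

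The SERPINB2 difference by the brighter probe was also taken apart by slide. Among the 16 pairs of irradiated and bystander arrays of an experiment that lay on 1 slide, irradiated cells were higher in 5, with a median of -0.10 and a range of -0.47 to 0.82. Among the 6 pairs on different slides they were higher in 6, with a median of 0.96 and a range of 0.19 to 2.06. These 6 pairs were experiment 4 at 0.5 h, with 2.06, and experiment 3 at the other times. At 0.5 h experiment 3 lay on 1 slide and gave -0.47. By the second probe irradiated cells were higher in 6 of 18 pairs on 1 slide, with a median of -0.12. On different slides that probe was higher in 5 of 6 pairs, with a median of 0.84 and a lowest value of -0.18. At 0.5 h experiment 4 alone was split over slides, and from 1 h on experiment 3 alone, so slide and experiment cannot be told apart at any time. With the slide as a fixed block the differences at 0.5, 1 and 4 h were -0.46, -0.080 and -0.37, and those at 2, 6 and 24 h were 0.28, 0.78 and 0.045.

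**Figure D3:**
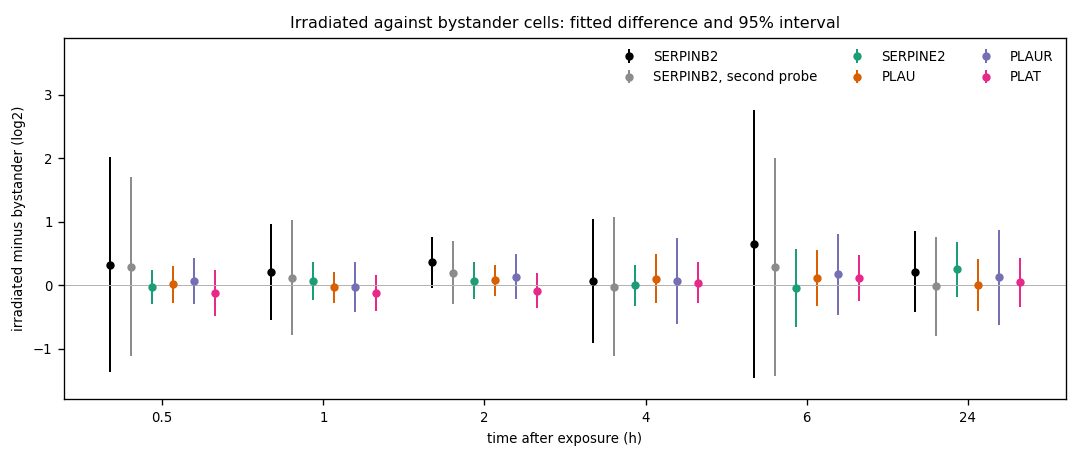
Fitted log2 difference between irradiated and bystander cells for the 6 member probes by time, with 95% intervals from limma. Every interval covers 0, and the SERPINB2 intervals at 0.5 and 6 h are wide, reaching 2.77 at 6 h.

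Other genes of the plasminogen system were read from a list of 17 genes, of which 12 had a probe that passed the filter (16 of 26 probes). Their ratios to control took no part in the choice of the 5 members. After irradiation 8 of 96 probe measurements over 6 times passed the test by limma, and 0 of 96 in bystander cells, where 16 had an unadjusted p below 0.05, beside 15.6% of all probe measurements over the 6 times. At 0.5 h, 1 gene fell, at 2 h 1 rose and 2 fell, and at 6 h 1 rose and 3 fell, with no call at 1, 4 and 24 h. Over the whole array 9.88%, 0%, 5.77%, 0.999%, 10.5% and 0.174% of probes were called after irradiation from 0.5 to 24 h, and 6.95%, 0%, 0.214%, 0.575%, 0.289% and 0% in bystander cells. Those called higher after irradiation were 5.79%, 3.08% and 4.9% at 0.5, 2 and 6 h, and those called lower 4.09%, 2.69% and 5.63%. The list had 1, 3 and 4 calls in either direction among its 16 probes at these times. The median difference over the list was -0.19, 0.12 and 0.14 there, beside -0.03, 0.00 and 0.02 over all probes.

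Among the genes counted, PLGRKT, a plasminogen receptor of the cell surface, rose by 0.36 ± 0.15 at 2 h (adjusted p = 0.070), where the value was -0.025 without scaling between arrays, and by 0.77 ± 0.36 at 6 h (adjusted p = 0.056, limma). A2M, a broad protease inhibitor that also traps plasmin, fell at 2 and 6 h. Its 6 h levels were 3.85, 3.88, 4.87 and 4.67 in controls and 3.01, 2.94, 4.47 and 3.55 in irradiated cells, lower than control in every experiment, as for 14.4% of all probes, by -0.82 ± 0.31 (adjusted p = 0.027). LRP1, the endocytic receptor that clears activator and inhibitor complexes, fell by 0.44 at 2 h and 0.88 at 6 h, with SDs of 0.30 and 0.78 and adjusted p of 0.076 and 0.094. MRC2, a collagen-uptake receptor that partners the urokinase receptor, fell at 6 h by 0.93 (SD 0.57, adjusted p = 0.089), and S100A10, which together with annexin A2 binds plasminogen, fell at 0.5 h by 0.39 (SD 0.19, adjusted p = 0.087).

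The genes of the list without a call were ANXA2, ENO1, VLDLR, IGF2R, VTN, F12 and PLG. Their mean irradiated ratios lay between -0.65 and 0.51. PLG itself, which is made mainly in liver, passed the filter by 1 of 4 probes, and the other 3 were not well above background on more than 90% of arrays. SERPINA5, SERPINF2, SERPINI1, CPB2 and KLKB1 had no probe that passed. The measurements of both lists that were called after irradiation had the same sign in bystander cells in 16 of 16, with adjusted p of 0.11 to 0.31 by limma, but the groups share controls. No difference between irradiated and bystander cells passed for either list (0 of 138, with 3 at an unadjusted p below 0.05 and a smallest adjusted p of 0.92).

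SERPINB2 belongs to the clade B serpins, which mostly act inside cells, and the other 12 genes of that clade were the second list. Only 4 of them (7 of 20 probes) passed the filter, namely SERPINB1, SERPINB6, SERPINB8 and SERPINB9. On chromosome 18 SERPINB2 lies in a row of 10 clade B genes in RefSeq, and of these only SERPINB2 and SERPINB8 had a probe that passed, with SERPINB10 between them and SERPINB7 on the other side of SERPINB2 not well above background on 97.2% and 72.2% of arrays.

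SERPINB8, known to inhibit the processing protease furin, rose after irradiation at 0.5 and 6 h by both of its probes. At 6 h its brighter probe was at -0.74, -0.67, -0.09 and 0.56 in controls, at 0.55, 0.39, 0.19 and 1.65 in irradiated cells, and at 0.20, 0.41, -0.14 and 1.73 in bystander cells. All 4 irradiated arrays were above their own controls, as for 14.1% of all probes, experiment 3 by the least, and the groups overlapped. The 6 h differences were 0.93 ± 0.45 and 0.89 ± 0.57 for the 2 probes (limma adjusted p = 0.042 and 0.077), and those at 0.5 h were 0.70 ± 0.63 and 0.57 ± 0.19 (adjusted p = 0.094 and 0.099).

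SERPINB6, an inhibitor of cathepsin G and thrombin, fell by both probes at the same times. At 0.5 h 1 probe was at 1.04, 1.02, 1.71 and 1.45 in controls and at 0.76, 0.65, 0.85 and 0.78 in irradiated cells, with every irradiated array below every control, as for 4.32% of all probes. The differences at 0.5 h were -0.54 ± 0.27 and -0.61 ± 0.12 (adjusted p = 0.070 and 0.054), and those at 6 h -0.65 ± 0.39 and -0.66 ± 0.46 (adjusted p = 0.065 and 0.083). SERPINB1 and SERPINB9 had mean irradiated ratios between -0.24 and 0.20 and no call. Of the 7 probes, 2 were called higher and 2 lower at 0.5 h and again at 6 h, beside 9.88% and 10.5% of all probes, and the medians of the 7 were -0.04 and 0.06. In bystander cells 0 of 42 probe measurements passed by limma, with 11 at an unadjusted p below 0.05, beside the same 15.6% of all probe measurements.

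**Figure D4:**
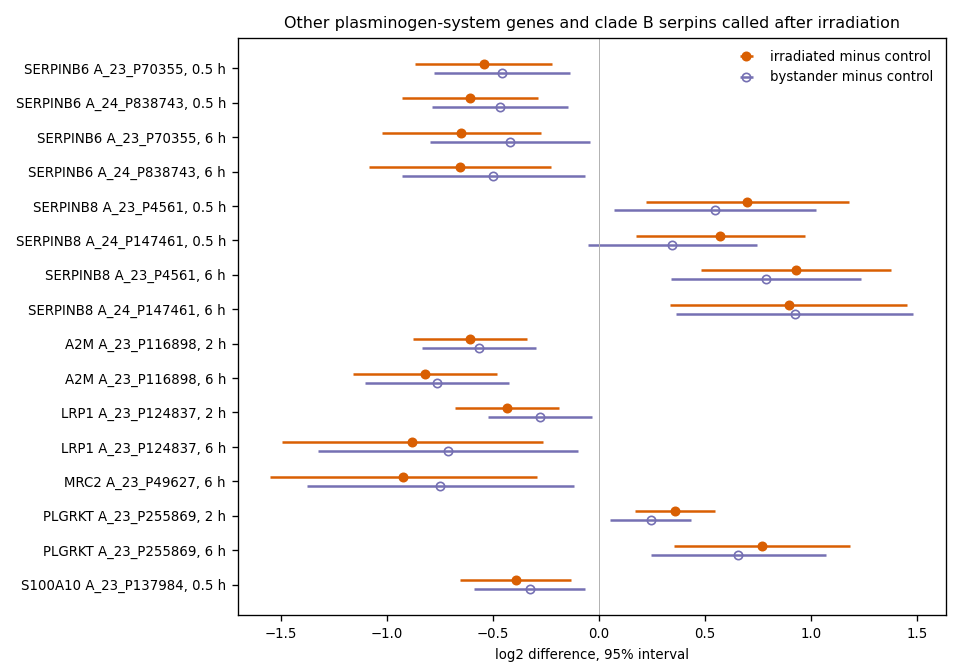
Fitted log2 difference from control, with 95% intervals from limma, for the 16 probe measurements of the 2 lists that were called after irradiation (filled) and the same measurements in bystander cells (open). SERPINB8 at 6 h lies highest at 0.93, and SERPINB8 and SERPINB6 lie on opposite sides of 0.

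These calls rested on few arrays. Of the 16 called measurements, 1 was still called without experiment 1, 4 without experiment 2, 7 without experiment 3 and 3 without experiment 4, and the fit then had 3 arrays a group. With experiments 1 and 2 averaged into 1 sample, 3 of the 16 were called.

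The genes whose ratios were most like those of SERPINB2 were looked for among all probes that passed, over the 46 pairs of 48 in which its brighter probe was measured. They were IL8, the neutrophil-attracting chemokine (r = 0.93), MMP1, the interstitial collagenase (0.91), DNAJA4, a co-chaperone (0.87), CXCL5, another neutrophil-attracting chemokine (0.86), and LAMB3, a laminin chain (0.85). The points share arrays and controls, and the values are descriptions.

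IL8 had the same high, low and high sequence in its means. Its mean irradiated ratio was 3.54 ± 1.60 at 0.5 h, 0.83 ± 1.40 at 1 h, 1.16 ± 0.56 at 2 h, 3.06 ± 1.53 at 4 h, 4.20 ± 2.07 at 6 h and 1.82 ± 1.02 at 24 h. The controls of experiments 1 and 2 rose from -0.58 and -0.75 at 0.5 h to 2.77 and 2.95 at 1 h. Their irradiated levels fell from 4.27 and 4.21 to 2.63 and 2.52, so the low ratios at 1 h are not those of treated cells alone. Experiment 4 ran the other way, with irradiated ratios of 1.85 at 0.5 h and 2.61 at 1 h. IL8 was also high in all 3 samples of experiment 3 at 24 h, at 5.85 in the control against 0.97, -1.14 and 0.60 in the other controls. MMP1 was at 5.43 in that control, against 3.01, 3.37 and 2.91, and was above its control in 24 of 24 irradiated and 24 of 24 bystander pairs. Its mean irradiated ratios were 2.26 ± 0.95 at 0.5 h and 3.23 ± 1.36 at 6 h. The same counts of irradiated and bystander pairs were 22 and 23 of 24 for IL8 and 22 and 18 for DNAJA4. They were 21 and 20 for CXCL5 and 23 and 24 for LAMB3. All 5 genes stayed among the 50 most like SERPINB2 without scaling, by its second probe and without each experiment in turn, and between 2 and 4 of them among the first 5.

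**Figure D5:**
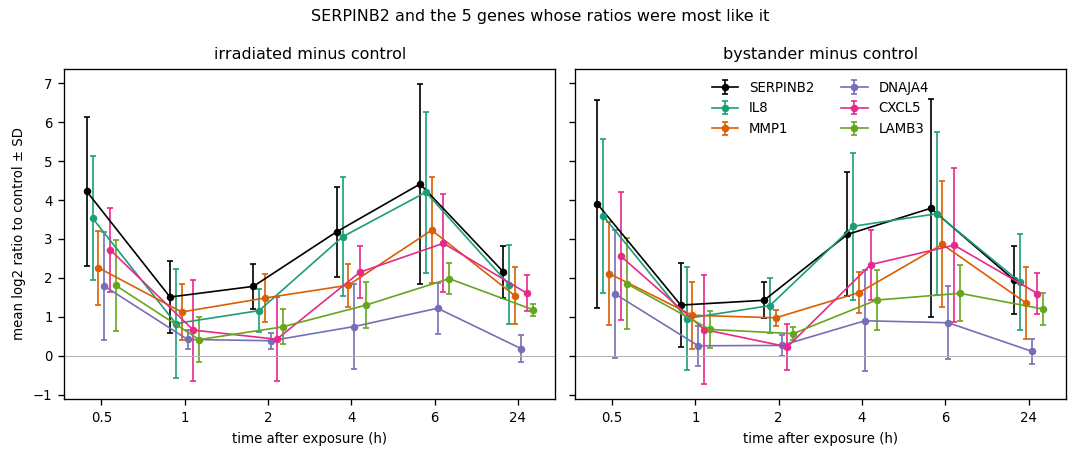
Mean log2 ratio to control ± SD (n = 4, and n = 3 for SERPINB2 at 6 h) by time for SERPINB2 and the 5 genes with the highest correlation to its ratios, in irradiated cells on the left and bystander cells on the right. IL8 is at 3.54 and 4.20 at 0.5 and 6 h after irradiation, where MMP1 is at 2.26 and 3.23, and at 1 and 2 h MMP1 lies nearer to SERPINB2 than IL8 does after irradiation.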

How the data were processed

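Deposited scanner outputs of 72 one-colour arrays from Feature Extraction 9.1.3.1 were read. Per the file headers the authors deposited an intensity for each spot after background subtraction and a spatial trend correction, with quality flags coded as other numbers (0 or 1), and no normalization between arrays. The authors' separate table of log2 values served only as an alternative. Control spots were left out, uneven spots set to missing, and spots of a probe averaged. Each array's log2 intensity was taken relative to its 75th percentile. The filter kept probes dim or uneven on at most 10% of the 72 arrays. Gene names were those of the files.

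For each time, limma 3.58.1 in R 4.3.3 was fitted to 12 arrays with treatment and experiment as terms. Its variance prior followed intensity, p-values were adjusted by Benjamini-Hochberg over every passing probe, with a call at adjusted p below 0.10. The experiment number was a block because the methods state that the samples of an experiment were run in parallel from 1 pool. Same-numbered arrays had correlated deviations above 0.1 in 12 of 12 pairs at 0.5, 1, 2 and 24 h, 11 of 12 at 4 h and 10 of 12 at 6 h. The number of arrays limits precision.

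Members were named by their brightest probe, other probes by ranges or counts. List genes were named where called (1 gene of the plasminogen list is not reported here and is left out of its counts), and the 5 genes most like SERPINB2 by correlation of paired ratios. The members and both gene lists were chosen with earlier results of these data known, and SERPINB2 was on the study's own list from 4 h. Alternatives covered scaling, background correction, the filter, blocks, the threshold and left-out experiments, and averaging experiments 1 and 2 was added after seeing the data. The script was tested on simulated data.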

Additional observations from a re-analysis of the deposited data

Results flagged for a closer look

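In 19 of 146 sets of 4 values for the members' named probes, 1 experiment lay far from the other 3 by Dixon's criterion, which chance meets in about 1 set in 20. Among the ratios to control, SERPINB2 in bystander cells at 1 h was 2.92 in experiment 4, against 0.67 to 0.87 in the others. PLAUR in experiment 4 was 1.14 in bystander cells at 2 h, 2.46 in irradiated cells at 6 h and 2.12 in bystander cells at 6 h, and PLAU in experiment 3 was -0.39 in irradiated cells at 24 h, against 0.40 to 0.49.

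Among the levels, SERPINB2 was 0.54 in the 4 h control of experiment 4 and 4.88 in the 24 h control of experiment 3, with the other controls at or below -1.68 and -1.24. PLAUR in experiment 4 was 1.26 in irradiated cells at 1 h, 2.11 in bystander cells at 2 h, 2.79 in irradiated cells at 4 h and 2.74 in bystander cells at 4 h. PLAU was 6.82 in the 0.5 h control of experiment 3, 7.03 in the 2 h control of experiment 4 and 7.15 in 24 h bystander cells of experiment 4. SERPINE2 was 3.67 in the control and 4.18 in bystander cells of experiment 4 at 0.5 h, 4.02 in bystander cells of experiment 3 at 1 h, and 3.59 in the control and 3.98 in bystander cells of experiment 3 at 2 h.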

How the results depend on the processing

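SERPINB2's ratios to control changed sign in 0 of 336 values over 14 alternatives, many of which can move a mean only a little, and at 6 h the means ran as low as 2.93 and 2.23 with 1 experiment left out. Signs changed in 9 of 168 for PLAT, 14 of 168 for PLAU, 11 of 168 for SERPINE2 and 0 of 168 for PLAUR. Without scaling, the median of all probes shifted by -0.38 to 0.17 after irradiation and by -0.26 to 0.42 in bystander cells. The 0 calls of members between irradiated and bystander cells stayed 0 under all alternatives. The SERPINB2 difference in that contrast reversed to -0.46, -0.080 and -0.37 with slide as a fixed block at 0.5, 1 and 4 h, to -0.44 and -0.025 without scaling at 4 and 24 h, and with 1 experiment left out ran from -0.26 to 0.59 at 0.5 h, -0.078 to 0.34 at 1 h, -0.19 to 0.17 at 4 h and -0.081 to 1.44 at 6 h. PLGRKT at 2 h reversed to -0.025 without scaling.

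After irradiation the plasminogen list had 8 calls, and 5 with normexp, 3 without the filter, 0 with no replicate block, 3 with slide as a fixed block, 2 at an adjusted p below 0.05, 2 with experiments 1 and 2 averaged and 1 to 7 with 1 experiment left out. The clade B list had 8, and 4 without scaling, 4 in the authors' table, 0 without the filter, 0 with no replicate block, 3 with slide as a fixed block, 1 at an adjusted p below 0.05, 1 with experiments 1 and 2 averaged and 0 to 4 with 1 experiment left out. In bystander cells the plasminogen list had 0, and 1 with quantile normalization, 1 with normexp, 5 with all 72 arrays in 1 fit and 0 to 3 with 1 experiment left out. The clade B list had 0, and 2 without scaling, 1 with quantile normalization, 3 with normexp, 1 with slide as a random block, 2 with all 72 arrays in 1 fit and 0 to 1 with 1 experiment left out. The cause of these changes was not tested. The other alternatives stayed within 1.5 times the count. Signal over background limits the lists, since 16 of 26 and 7 of 20 of their probes passed the filter on dim or uneven spots.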
